A study of Mus musculus with 4 samples.

Results

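Exon peaks are the accessible regions that the authors' deposited table placed in exons. They were chosen as every row whose annotation class reads exon, and there were 6572 of them among 130941 peaks, 5.02% of the set. The values come from fast-ATAC, in which a transposase cuts open chromatin and tags it with sequencing adapters, so that the count over a peak measures accessibility. The cells were sorted from mouse bone marrow as lineage-negative, Sca1-positive and cKit-positive, a fraction rich in blood stem cells and multipotent progenitors. Of the 4 mice, 2 were wild type and 2 were Helios null, all were 10 weeks old, and each mouse gave 1 library. Helios, encoded by Ikzf2, is a zinc finger transcription factor of the Ikaros family. No source used here names the allele, the strain or the sex of the mice. The comparison asks how chromatin accessibility differs between cells of both genotypes.

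Exons lie in different parts of a gene and so meet open chromatin in different settings. A first exon begins at the transcription start, and its accessible DNA is usually the downstream side of a promoter, often within a CpG island. Internal and last exons lie in transcribed DNA that nucleosomes normally cover, and peaks there can mark enhancers inside genes, starts of shorter transcripts or sites near the end of a gene.

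The deposited detailed annotation named an exon for 6546 of the peaks and an intron for the other 26. By exon number, 2273 peaks (34.6%) lay in the first exon of a transcript with several, 1865 (28.4%) in the last, 1215 (18.5%) in an internal one and 1193 (18.2%) in the exon of a single-exon transcript. The position is that within the annotated transcript, which can be shorter than others of the same gene. In Kdr, one peak lay in exon 10 of 10 and another in exon 1 of 30. A last exon here is therefore not always at the end of its gene. The transcript was protein-coding for 5287 peaks (80.4%), a lincRNA for 425, a TEC entry (an unverified transcript) for 343, antisense for 190 and a processed pseudogene for 77. The peaks carried 5482 assigned gene names, and 4619 of those genes had 1 exon peak. The assigned gene was also a RefSeq gene at the centre of the peak for 4870 peaks (74.1%), so for the remainder the assigned name and the gene that holds the peak can differ. The median width was 561.5 bp, with a range of 74 to 2656 bp, against 405 bp for all peaks.

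Many first-exon peaks reached across a transcription start. On the chromosomes with RefSeq start windows, 1222 of 2188 first-exon peaks (55.9%) held a RefSeq start, against 172 of 1179 in single exons (14.6%), 54 of 1181 in internal exons (4.57%) and 51 of 1822 in last exons (2.80%). The next sequences show this for 4 peaks. Gnai1, Ctnnd2 and Pth2r are first-exon peaks with some of the largest lower values in Helios null libraries, and Dsel was among the most accessible exon peaks in wild type. Each line gives the bases before the RefSeq start that lie inside the peak, 5′ to 3′ along the gene, from RefSeq windows of build GRCm38.p6 (mm10), with each CG dinucleotide in capitals. The regions are chr5:18360414-18360663 on the minus strand for Gnai1, chr15:30172284-30172533 on the plus strand for Ctnnd2, chr1:65311052-65311256 on the plus strand for Pth2r and chr1:111864919-111865168 on the minus strand for Dsel.
Gnai1: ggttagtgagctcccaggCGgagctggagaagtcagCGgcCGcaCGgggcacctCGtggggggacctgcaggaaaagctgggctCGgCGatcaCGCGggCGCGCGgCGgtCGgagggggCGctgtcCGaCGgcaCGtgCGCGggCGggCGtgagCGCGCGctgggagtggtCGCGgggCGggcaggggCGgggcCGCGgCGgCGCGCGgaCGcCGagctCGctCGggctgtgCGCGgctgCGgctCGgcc
Ctnnd2: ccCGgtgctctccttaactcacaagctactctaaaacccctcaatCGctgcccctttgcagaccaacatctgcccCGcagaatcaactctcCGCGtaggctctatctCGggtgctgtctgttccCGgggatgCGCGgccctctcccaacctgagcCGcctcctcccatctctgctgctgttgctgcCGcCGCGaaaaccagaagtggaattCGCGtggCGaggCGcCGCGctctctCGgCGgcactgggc
Pth2r: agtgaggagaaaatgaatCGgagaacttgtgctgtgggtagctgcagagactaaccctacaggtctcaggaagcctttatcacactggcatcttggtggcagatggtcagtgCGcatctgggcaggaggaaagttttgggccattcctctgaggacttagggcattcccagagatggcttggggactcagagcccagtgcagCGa
Dsel: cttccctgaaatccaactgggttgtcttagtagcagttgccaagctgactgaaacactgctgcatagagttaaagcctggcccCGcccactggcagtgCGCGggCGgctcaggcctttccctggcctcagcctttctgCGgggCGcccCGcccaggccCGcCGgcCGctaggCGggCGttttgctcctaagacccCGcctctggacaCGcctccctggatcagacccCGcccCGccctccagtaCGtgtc
The Gnai1 stretch held 43 CG dinucleotides in 250 bases and was 79.2% G and C. Ctnnd2 held 21 in 250 bases at 62.8%, and Dsel held 17 at 65.6%. Pth2r, with 3 in 205 bases at 53.7%, was the poorest of the 4. It was also the only one of these 4 stretches with the Ikaros family core TGGGAA on either strand.

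Start windows inside exon peaks were CpG-rich as a group. Windows of 300 bases, from 250 bases before to 50 after a RefSeq start, overlapped 1467 exon peaks by at least 100 bases. Their median G and C content was 60.3%, against 52.7% for all 32851 RefSeq windows, with a median of 19 CG dinucleotides against 7. The Sp/KLF GC box GGGCGG was present on either strand in 63.9% of the windows in exon peaks and in 35.7% of all windows. TGGGAA was present in 22.4% against 25.6%. Among windows in exon peaks, TGGGAA was found in 25.7% of the 323 whose peak was lower at an unadjusted p under 0.05 and in 20% of the 75 whose peak was higher. TGGGAA and the ETS core GGAAGT share the letters GGAA and can overlap, and ETS cores were found in 21.7% and 32.0% of those windows. The AP-1 motif TGANTCA was found in 3.10% and 13.3% of them. Over all windows in exon peaks the shares were 24.3% for ETS and 4.91% for AP-1. RUNX motifs were in 12.4% and 18.7% of the windows of lower and higher peaks, C/EBP motifs in 6.50% and 13.3%, GATA motifs in 6.50% and 6.67%, and the GC box in 66.3% and 58.7%. With 0 to 6 genes within 0.5 Mb, ETS cores were in 21.3% and AP-1 motifs in 3.61% of windows. With 26 or more genes these shares were 29.3% and 7.07%. These are descriptions of letters in a window and do not show binding.

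Counts over all peaks ran from 16033211 to 30290804 per library, and exon peaks held 1239616 to 2227922 of them. Library 1 was the deeper one in both genotypes, and Y-linked peaks held 1715 and 1166 counts in wild type 1 and Helios null 1 but 5 and 2 in wild type 2 and Helios null 2, so sex and depth both follow the library number and cannot be told apart. Of the stem and progenitor markers, 10 of 12 had a promoter peak, the exceptions being Ly6a (which encodes Sca1) and Procr. The summed promoter signal of these markers was 225 and 213 CPM (library-scaled counts, with library sizes adjusted by the TMM method) in wild type and 256 and 236 CPM in Helios null. Markers of lineages that the sort removes had a promoter peak for 3 of 8, with sums of 17.2 and 15.6 CPM in wild type and 20.9 and 18.8 CPM in Helios null, and Cd3e, Cd8a, Ms4a1 and Ly6g were among those with none. Stroma and endothelium markers had one for 4 of 7, with sums of 47.8 and 38.4 CPM in wild type and 55.0 and 48.3 CPM in Helios null, and Kdr, Lepr and Cxcl12 had none. All 3 sums were higher in both Helios null libraries than in both wild-type ones, and their part in the results was not tested. In sorted cells analysed in bulk, a different mix of cell types and a different accessibility per cell cannot be told apart.

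Accessibility per length depended on the place of the exon. In wild type, first-exon peaks had a median of 14.98 CPM per kb, which was close to the 14.95 CPM per kb of promoter peaks. Single-exon peaks followed at 11.4 CPM per kb. Internal-exon peaks at 7.96 and last-exon peaks at 7.82 CPM per kb lay at the level of intron peaks, at 7.78 CPM per kb. In every library first-exon medians were above single-exon ones, and these above internal-exon and last-exon ones. The first-exon medians were 14.8 and 14.8 CPM per kb in wild type and 13.9 and 14.4 in Helios null, and the last-exon medians were 7.95 and 7.77 against 7.98 and 7.97. Peaks that held a RefSeq start had a wild-type median of 16.5 CPM per kb and a width of 1175 bp, against 8.88 CPM per kb and 400 bp for those without one.

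**Figure D1:**
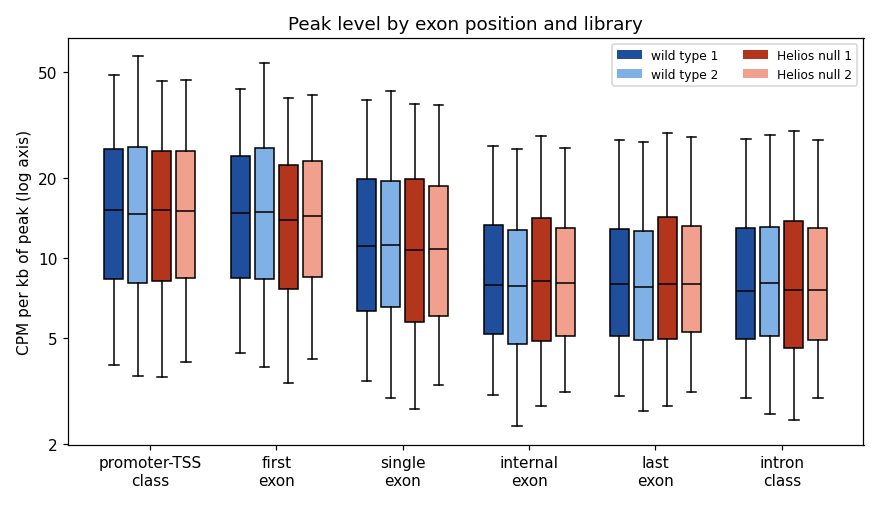
Normalised counts per kb of peak (log axis) for promoter, exon and intron peaks in each of the 4 libraries; boxes show the quartiles with the median as a line, and whiskers the 5th and 95th percentiles of peaks. First-exon peaks sit at the level of promoter peaks, and internal-exon and last-exon peaks at the level of intron peaks, in all 4 libraries.

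The most accessible exon peaks of wild-type cells per kb lay almost all in first exons, in neighbourhoods with few genes. The 10 genes that headed the order were Dsel (a dermatan sulfate epimerase relative), Arrdc4, Pank3, Sel1l, Bmt2, Ppa2, Lgr4, Bard1, Sec23a and a peak assigned to 1700023H06Rik that lies inside Arrdc3. Each had between 1 and 6 protein-coding RefSeq genes within 0.5 Mb, a count by gene midpoint that can include the gene itself. Dsel had 120.5 and 194.8 CPM in wild type and 73.5 and 103.2 CPM in Helios null (log2 fold change -0.83, SE 0.24). Bard1, the partner of BRCA1 in DNA repair, had 82.8 and 137.0 CPM in wild type and 48.6 and 63.4 CPM in Helios null (log2 fold change -0.97, SE 0.24). Both Helios null libraries lay below both wild-type libraries for these 2 genes, and all 10 peaks had a negative fold change, from -0.46 for Arrdc4 to -0.97 for Bard1. These peaks were chosen by their wild-type level, which also enters the fold change and so favours a negative value. None passed the test.

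No exon peak passed the test between genotypes. With edgeR's quasi-likelihood test adjusted over all 130754 tested peaks, 0 of the 6565 tested exon peaks reached an adjusted p under 0.05, and 8 peaks of any class did (0.00612%). The other 7 exon peaks had counts too low for the test. The lowest adjusted p of an exon peak was 0.189. Before adjustment, p was under 0.05 for 491 exon peaks with higher and 896 with lower counts in Helios null, together 21.1% of those tested, where the background over all tested peaks was 8.29% higher, 11.5% lower and 19.8% in either direction. DESeq2 called 59 of the 6565 exon peaks and 778 of all 130754 peaks, and limma-voom called 0 and 4. The p-values measure the spread between 2 mice per genotype. That spread includes sex and depth, which follow the library number in both genotypes and were left out of the reported fit. The labels do not say whether mice with the same number share a litter or day. A fit with library number as a block is described with the processing alternatives. It called 1701 of the 6565 exon peaks and 30595 of all 130754 peaks, so its many calls were not particular to exons.

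Over all tested exon peaks the difference was centred near zero. The median log2 fold change of Helios null over wild type was 0.00 (0.01 over all tested peaks), -0.04 within library number 1 and 0.02 within library number 2. For 28.5% of exon peaks the libraries of both null mice exceeded those of both wild-type mice, and for 30.5% they fell short of them, where the background was 28.0% and 28.3%. No exon peak with at least 1 CPM in the higher group showed a 10-fold difference between group means.

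In the authors' deposited table, 3646 exon peaks had an adjusted p and 60 of them were under 0.05 (1.65%), where the background over 54782 peaks was 1.41%. Of these 60 in the authors' deposited table, 11 were higher in Helios null and 49 lower, where the background was 0.455% higher and 0.958% lower. All 60 had the same direction in the edgeR fit, which used the same counts. Of the 49 lower ones in the authors' deposited table, 37 had 0 to 6 protein-coding genes within 0.5 Mb, and the authors' deposited table had 406 of its 525 lower peaks of any class in such neighbourhoods.

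First-exon and single-exon peaks had medians below zero, and internal-exon and last-exon peaks above it. The first-exon median log2 fold change was -0.09, and by edgeR 140 of these peaks (6.16%) were higher and 482 (21.2%) lower with p under 0.05 before adjustment. Among all tested peaks these shares were 8.29% and 11.5%, and among promoter peaks 7.28% and 14.6%. First-exon peaks were also wider, with a median of 1003 bp against 406 and 696 bp. Their median wild-type level was 13.5 CPM, against 3.14 and 8.74 CPM. In the 20% of tested exon peaks with the highest level, 7.01% were higher and 27.3% lower (median -0.11). In the 20% with the lowest level these shares were 4.34% and 9.06% (median -0.0007). The part of width and level in the first-exon shares was not tested. Single-exon peaks had a median of -0.05, with 65 (5.46%) higher and 165 (13.9%) lower by the same measure. Internal-exon peaks had a median of 0.08, with 100 (8.24%) higher and 101 (8.32%) lower, and last-exon peaks one of 0.09, with 183 (9.83%) higher and 143 (7.68%) lower. Both Helios null libraries were below both wild-type ones for 39.8% of first-exon peaks but 22.8% of last-exon peaks. Exon peaks of processed pseudogenes had the lowest median of the transcript types described here, -0.40 over 77 peaks. The first-exon peaks with and without a RefSeq start had close medians, -0.09 and -0.07. With local promoter density taken out, the medians were -0.14 for first exons, -0.07 for single exons, -0.02 for internal exons and 0.02 for last exons, so the internal one changed sign. Over the fits that left out 1 library the internal median ran from 0.02 without wild type 2 to 0.18 without wild type 1, and the last-exon median from 0.04 to 0.16.

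The sums of counts in each library showed the same contrast. Last-exon over first-exon counts, on the log2 scale, were -2.00 and -2.20 in wild type and -1.78 and -1.91 in Helios null. Both Helios null libraries were higher, by a mean of 0.26, and in each genotype library 1 was higher than library 2. Internal-exon over first-exon counts were -2.53 and -2.70 in wild type and -2.34 and -2.46 in Helios null, again higher in both. With 2 libraries against 2, the 2-sided exact permutation test gave p = 0.333 for both ratios, the smallest it can give.

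Exon counts kept the same ratio to promoter counts in all 4 libraries, while their ratio to intron counts was lower in Helios null. They were 7.49% and 7.73% of all counts in wild type and 7.02% and 7.29% in Helios null, lower in both Helios null libraries (7.61% ± 0.171 against 7.16% ± 0.196, SD, n = 2 each, exact permutation p = 0.333). The lower share did not hold for every exon position. Mean differences were -0.478 percentage points for first exons and -0.081 for single exons, but 0.028 for internal and 0.073 for last exons. The log2 ratio of exon to intron counts was -1.75 and -1.69 in wild type and -1.89 and -1.81 in Helios null, with a mean difference of -0.13 (exact permutation p = 0.333). For exon peaks narrower than the median peak, the difference in this ratio was -0.018 and that in the exon share 0.0106 percentage points (exact permutation p = 0.667 for each). With promoter peaks left out of the total, the difference in share was -1.05 percentage points. The log2 ratio of exon to promoter counts was -2.21 in each of the 4 libraries, with a mean difference of 0.0003. Promoter counts were 34.6% and 35.7% of the total in wild type and 32.4% and 33.7% in Helios null.

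**Figure D2:**
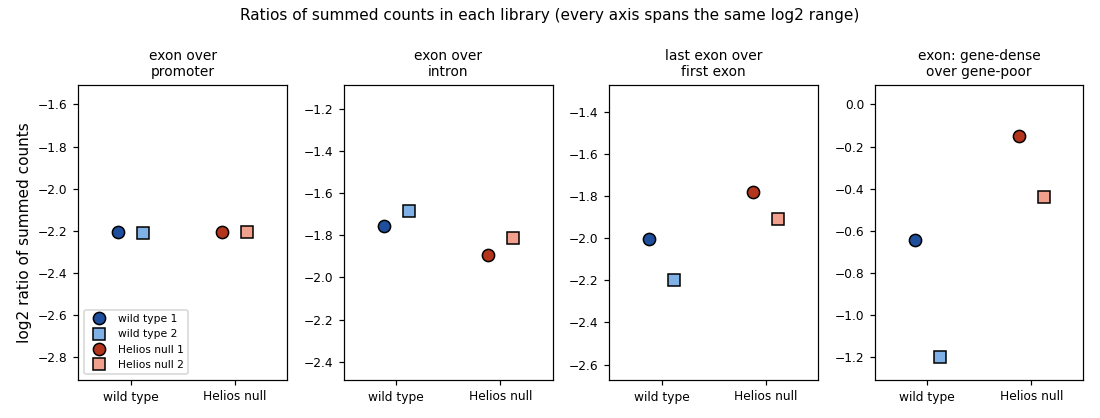
Log2 ratios of summed counts in each library, with wild-type libraries in blue, Helios null libraries in red, library 1 as circles and library 2 as squares; every axis spans the same log2 range. The exon over promoter ratio is -2.21 in all 4 libraries, whereas the gene-dense over gene-poor ratio runs from -1.20 in wild type 2 to -0.15 in Helios null 1.

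Exon peaks in gene-poor DNA were mostly lower in Helios null and those in gene-dense DNA mostly higher. The medians spanned a wider range by the number of genes nearby than by the place of the exon. Genes were counted by their midpoints, so the gene that holds a peak is included when its midpoint is near enough. With 0 to 6 protein-coding RefSeq genes within 0.5 Mb, the median log2 fold change of exon peaks was -0.39, and it was -0.13 with 7 to 10, 0.01 with 11 to 15, 0.19 with 16 to 25 and 0.27 with 26 or more. Over all tested peaks the same bins gave -0.35, -0.05, 0.10, 0.28 and 0.33, so the order was not particular to exons. By edgeR, p before adjustment was under 0.05 for 38 higher and 478 lower exon peaks of the poorest bin, and for 178 higher and 42 lower ones of the densest bin. These were 2.35% and 29.5% of the poorest bin, against 2.86% and 22.4% for all peaks there, and 14.1% and 3.32% of the densest, against 17.0% and 2.22%. First-exon peaks lay below last-exon peaks in each bin, at -0.55 against -0.28 in the poorest and 0.24 against 0.33 in the densest.

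The per-library sums gave the size of this order and its spread. The log2 ratio of exon counts in the densest bin to those in the poorest was -0.64 and -1.20 in wild type and -0.15 and -0.44 in Helios null. Helios null was higher by a mean of 0.63 (exact permutation p = 0.333), and no Helios null library was as low as a wild-type one. The gap between the 2 wild-type mice, of libraries 1 and 2, ran along the same ratio. For all peaks the mean difference was 0.55. Without wild type 2 the median log2 fold changes of the poorest and densest bins were -0.23 and 0.13, and without wild type 1 they were -0.56 and 0.44. With local promoter density taken out they were -0.11 and -0.09, which ends the contrast by the construction of that setting.

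**Figure D3:**
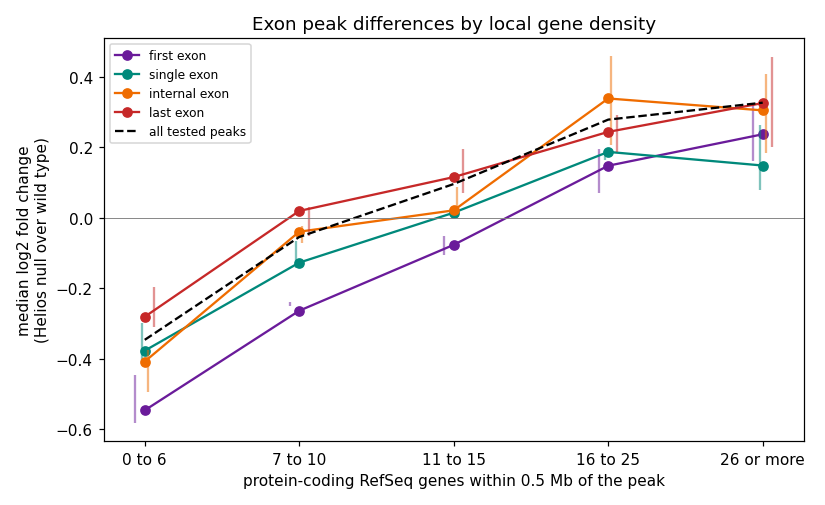
Median log2 fold change of Helios null over wild type for exon peaks by local gene density (protein-coding RefSeq genes no further than 0.5 Mb), one line per exon position and a dashed line for all tested peaks; thin bars join the medians within library numbers 1 and 2. Medians are lowest in the poorest bin for every exon position and run from -0.55 to 0.24 for first exons and from -0.28 to 0.33 for last exons.

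Chromosomes differed along with this. Exon peaks of chromosome 11 had a median log2 fold change of 0.39, and both Helios null libraries were above both wild-type ones for 56.6% of them, against 0.39 and 51.4% for all peaks of the chromosome. Medians were 0.20 on chromosomes 15 and 17 and 0.15 on chromosome 19, against -0.24 on chromosome 3 and -0.28 on chromosome 18. All peaks of chromosomes 15, 17 and 18 had medians closer to zero, at 0.09, 0.12 and -0.12. Those of chromosomes 19 and 3 were 0.18 and -0.22. The X chromosome had a median of -0.37, which was -0.32 within library number 1 and -0.45 within number 2, and 52.7% of its exon peaks were lower without overlap. All peaks of the X chromosome had a median of -0.40, with 46.9% lower without overlap. Ikzf2 itself, which encodes Helios, had 0 exon peaks, so these peaks give no check of the genotype. The 53 exon peaks within 10 Mb of Ikzf2 on chromosome 1 had a median of -0.16, beside -0.19 for all 912 peaks of that interval and -0.06 for the other 484 exon peaks of the chromosome.

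Of the 8 genes with the largest lower values under the naming rule (groups apart, at least median abundance and an edgeR p under 0.01 before adjustment), 6 had only 1 or 2 protein-coding genes within 0.5 Mb. This count can include the gene itself. Gnai1 encodes an inhibitory G protein alpha subunit. Its first-exon peak (chr5:18359387-18360985), whose start sequence is given above, had 30.3 and 48.7 CPM in wild type and 11.7 and 17.7 CPM in Helios null. Both Helios null libraries were below both wild-type libraries, with a log2 fold change of -1.42 (SE 0.28) and little difference between the numbers (-1.36 and -1.46). The edgeR adjusted p was 0.189. The authors' deposited table gives it a log2 fold change of -1.30 and an adjusted p of 0.00529.

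Ctnnd2 encodes delta-catenin, a junction protein mostly of neurons. Its first-exon peak (chr15:30172152-30173695) had 12.2 and 25.96 CPM in wild type and 2.87 and 7.46 CPM in Helios null, a log2 fold change of -1.89 (SE 0.44). It showed the most negative value under the naming rule, with the groups apart and library 2 above library 1 in each genotype. The authors' deposited table gave it a log2 fold change of -0.16 with an adjusted p of 0.159. Nrg3, a neuregulin that binds the receptor ErbB4, had 12.1 and 21.3 CPM in wild type and 5.11 and 7.42 CPM in Helios null (-1.41, SE 0.31). Xkr4, of the Xk-related membrane protein family, had 8.07 and 14.8 CPM in wild type and 3.10 and 4.84 CPM in Helios null (-1.52, SE 0.35). Each of these 3 peaks had a count of 1 protein-coding gene within 0.5 Mb, which for Ctnnd2 and Xkr4 was the gene itself. In each peak library 2 was higher than library 1 in both genotypes.

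The other lower peaks named included last exons and an olfactory receptor gene. Pth2r, a receptor of the parathyroid hormone family, had 2.96 and 7.23 CPM in wild type and 1.55 and 1.96 CPM in Helios null (-1.51, SE 0.42). The last-exon peak of Slitrk5, a membrane protein of synapses, had 11.96 and 32.8 CPM in wild type and 5.08 and 11.2 CPM in Helios null (-1.46, SE 0.45). There the closest libraries, wild type 1 and Helios null 2, differed by less than 1 CPM, and the authors' deposited table gave Slitrk5 a log2 fold change of -0.11 with an adjusted p of 0.2999. The olfactory receptor gene Olfr229 had 5.48 and 9.23 CPM in wild type and 2.37 and 2.57 CPM in Helios null (-1.56, SE 0.32), in a neighbourhood of 37 genes. Slc40a1 encodes ferroportin, the iron exporter of cells, and had a peak in exon 5 of 5 of the annotated transcript. This peak had 9.04 and 13.6 CPM in wild type and 3.20 and 5.37 CPM in Helios null (-1.40, SE 0.32).

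Pcdh17, a protocadherin, had 6 exon peaks, the most of any gene, all within its first exon on chromosome 14. All 6 were lower without overlap, with log2 fold changes from -1.45 to -0.72 and a median of -1.17, and all 6 had an unadjusted p under 0.05 by edgeR. The peak with the most negative value (chr14:84444706-84444828) had 4.42 and 5.55 CPM in wild type and 1.35 and 2.31 CPM in Helios null. These peaks share 1 exon and are not independent of each other. Another 9 genes had 5 exon peaks each. St8sia4, a polysialyltransferase, had all 5 lower without overlap (median -0.26), whereas the 5 of Extl1 had a median of 0.67 with 3 higher without overlap, those of Etv3 0.34 and those of Rheb 0.33. Medians were -0.32 for peaks assigned to Casp6, -0.15 for Sox12, 0.04 for Jmjd1c, 0.12 for Zfp704 and 0.17 for Mars2.

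The largest higher value lay in Neat1, the long noncoding RNA that builds nuclear paraspeckles. The peak is assigned to Gm27533, spans 2336 bp (chr19:5839507-5841842) and lies wholly inside the RefSeq Neat1 gene (chr19:5824708-5845480). It had 63.1 and 10.7 CPM in wild type and 264 and 95.8 CPM in Helios null. Both Helios null libraries were above both wild-type ones, the 2 wild-type libraries differed more from each other than wild type 1 did from Helios null 2, and the log2 fold change was 2.27 (SE 0.64), 2.06 within number 1 and 3.16 within number 2. The authors' deposited table gives it a log2 fold change of 0.08 and an adjusted p of 0.251.

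Of the peaks around it, those described next showed the same full order of libraries, and some others did not. The Neat1 promoter peak had 34.5 and 24.5 CPM in wild type and 58.7 and 49.3 CPM in Helios null, a log2 fold change of 0.87 (SE 0.21). The peak just beyond the 3′ end of Malat1, the neighbouring long noncoding RNA, had 47.0 and 12.4 CPM in wild type and 112 and 56.9 CPM in Helios null (1.49, SE 0.48). Wild type 2 was the lowest library in these 3 peaks. None of the Neat1 and Malat1 peaks plotted passed the edgeR test, the lowest adjusted p being 0.189. In the authors' deposited table the Neat1 promoter peak had a log2 fold change of 0.72 with an adjusted p of 0.0482.

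**Figure D4:**
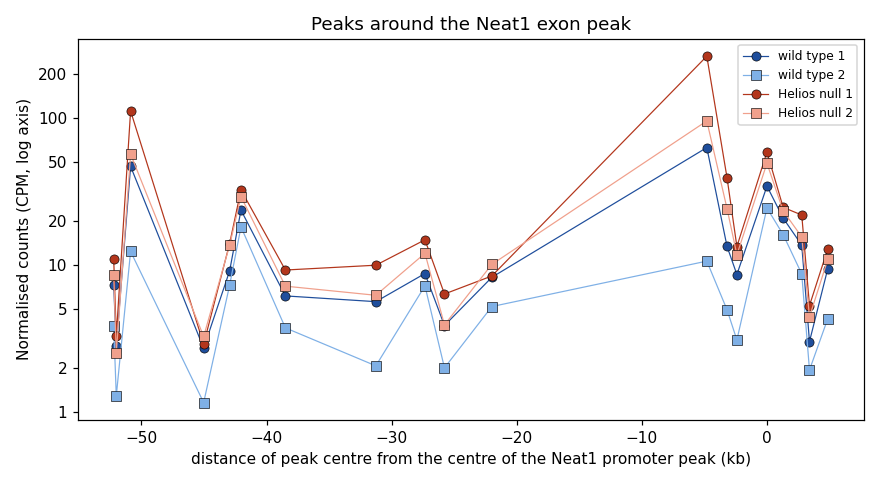
Normalised counts (CPM, log axis) in each library for peaks along the Neat1 and Malat1 region of chromosome 19, by distance in kb from the centre of the Neat1 promoter peak, negative values lying towards Malat1. The exon peak at -4.81 kb reaches 264 CPM in Helios null 1 and 10.7 CPM in wild type 2, and wild type 2 is the lowest library at every peak shown.

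Other higher peaks were mostly in last or second exons, and their libraries were closer together. The peak assigned to Gm43413 (chr5:123118457-123119419) lies in Rhof, which encodes a small GTPase of filopodia. It had 8.74 and 8.39 CPM in wild type and 28.3 and 20.6 CPM in Helios null. With wild-type libraries almost equal and both Helios null libraries far above them, the log2 fold change was 1.51 (SE 0.23), 1.69 and 1.29 within numbers 1 and 2, with an edgeR adjusted p of 0.189. In the authors' deposited table it had the lowest adjusted p of the exon peaks named here, 0.000173, with a log2 fold change of 1.41. Uba7, the enzyme that activates the interferon-induced modifier ISG15, had 10.1 and 7.81 CPM in wild type and 22.8 and 19.2 CPM in Helios null (1.22, SE 0.23). Map1lc3b, the LC3 protein of autophagosome membranes, had 1.99 and 1.87 CPM in wild type and 4.48 and 4.54 CPM in Helios null (1.22, SE 0.30).

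In the peaks assigned to Mfsd2b, Ezh1 and 2610300A13Rik, Helios null 1 stood further out. Mfsd2b encodes the sphingosine-1-phosphate exporter of red cells and platelets, and its second-exon peak had 2.39 and 5.23 CPM in wild type and 13.9 and 7.42 CPM in Helios null. The log2 fold change was 1.53 (SE 0.40) but 2.49 within number 1 and 0.50 within number 2. A peak assigned to the Polycomb gene Ezh1 lies inside Cntnap1, a gene of myelinated axons, and had 2.46 and 1.68 CPM in wild type and 8.25 and 2.97 CPM in Helios null (1.42, SE 0.45). The peak of the gene 2610300A13Rik had 1.66 and 1.42 CPM in wild type and 6.93 and 3.75 CPM in Helios null (1.78, SE 0.37). Gm12828, inside the ubiquitin ligase gene Rnf220, had 3.65 and 2.91 CPM in wild type and 9.86 and 6.72 CPM in Helios null (1.33, SE 0.30). Gm11770, named from the authors' deposited table, had 13.5 and 7.23 CPM in wild type and 27.2 and 19.9 CPM in Helios null (1.17, SE 0.29).

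**Figure D5:**
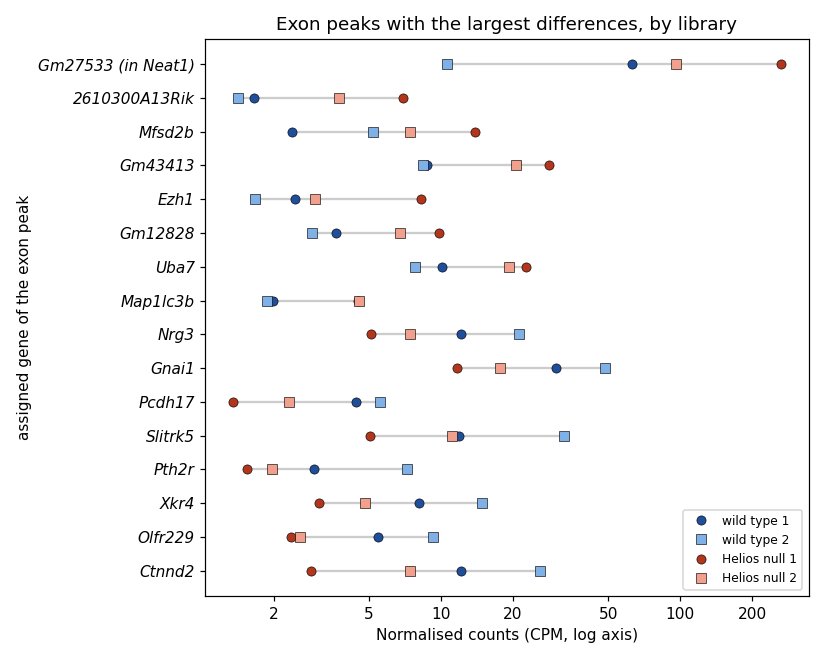
Normalised counts (CPM, log axis) in each library for the 8 exon peaks with the largest higher and the 8 with the largest lower values in Helios null under the naming rule; grey lines join the lowest and highest library. In all 16 peaks the red Helios null symbols and the blue wild-type symbols do not overlap, since that was part of the rule.

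Exon peaks were also set beside the promoter peaks of the same genes. For 995 first-exon peaks with a promoter peak of the same assigned gene, the fold changes of exon and promoter had a Pearson correlation of 0.76 across peaks, and the median difference was -0.03. For 965 last-exon peaks the correlation was 0.64, and the last exon lay above its promoter in 61.2%, by a median of 0.10. Among 160 genes with both a first-exon and a last-exon peak, the last exon had the higher fold change in 109 (68.1%). The peaks compared come from the same 4 libraries, and the correlations carry no test.

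Gene lists gave few exon peaks each, and none of the peaks passed the edgeR test. Across all tested exon peaks the median log2 fold change was 0.00, and by edgeR p before adjustment was under 0.05 for 7.48% with higher and 13.6% with lower values. Of the megakaryocyte and platelet genes, 10 had 11 exon peaks, with a median of 0.26 and 7 above 0. Itgb3, the beta subunit of the platelet fibrinogen receptor, had 18.2 and 11.9 CPM in wild type and 30.8 and 24.7 CPM in Helios null (0.88, SE 0.24). Mmrn1, which encodes the platelet protein multimerin, went the other way, with 20.6 and 28.5 CPM in wild type and 14.5 and 14.9 CPM in Helios null (-0.73, SE 0.22). Neither pair of groups overlapped.

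The erythroid list had 5 exon peaks with a median of 0.05. The second-exon peak of Klf1, the master regulator of red cell genes, had 26.3 and 21.4 CPM in wild type and 31.4 and 30.8 CPM in Helios null (0.38, SE 0.20), and its sign was reversed when local promoter density was taken out. Epb41, a red cell membrane skeleton protein, had 50.02 and 45.98 CPM in wild type and 63.0 and 58.0 CPM in Helios null (0.33, SE 0.18), with the same reversal. The lymphoid list had 7 exon peaks with a median of 0.07, and none had an unadjusted p under 0.05. The 7 granulocyte and monocyte peaks had a median of 0.46, with 4 above 0. Csf2ra, the alpha chain of the GM-CSF receptor, had 82.8 and 111 CPM in wild type and 57.8 and 64.2 CPM in Helios null (-0.67, SE 0.19). Irf8, a transcription factor of monocytes and dendritic cells, had 7.41 and 7.88 CPM in wild type and 13.6 and 10.8 CPM in Helios null (0.68, SE 0.24).

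Of the stem cell genes, 9 had 10 exon peaks, with a median of 0.10 and 6 above 0. Hoxb5, expressed in long-term stem cells, had 2.96 and 2.65 CPM in wild type and 6.46 and 4.84 CPM in Helios null (1.01, SE 0.29), and a short peak in Cd34 had 2.96 and 3.75 CPM in wild type and 2.11 and 1.92 CPM in Helios null (-0.72, SE 0.32). The Hox clusters had 21 exon peaks in 16 genes, with a median of 0.41, which was 0.05 within number 1 and 0.61 within number 2. Values differed by cluster. The 5 Hoxa peaks on chromosome 6 (median 0.46) were above 0 under every setting that kept all 4 libraries. The 7 Hoxb peaks on chromosome 11 (median 0.63) were above 0 as reported, but Hoxb9 was at -0.12 with local promoter density taken out, and 1 peak was at -0.03 without wild type 2. The 5 Hoxd peaks on chromosome 2 (median -0.83) were below 0 in every setting that gave them a value, and a minimum of 50 counts in 2 libraries kept 2 of the 5. The 4 Hoxc peaks on chromosome 15 lay between -0.25 and -0.02, but 1 of them was above 0 under total counts and under loess offsets. Of these 4, 3 were above 0 without wild type 1 (median 0.12) and without Helios null 1 (median 0.08), so their direction rests on those libraries. Hoxd9 had 1.06 and 1.16 CPM in wild type and 0.40 and 0.61 CPM in Helios null (-1.15, SE 0.47).

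Chromatin genes went both ways. The Ikaros family and NuRD list, which holds the partners of Ikaros proteins, had 6 exon peaks in 4 genes with a median of 0.00. The first-exon peak of Hdac2, a histone deacetylase of NuRD, had 79.0 and 127 CPM in wild type and 47.0 and 59.6 CPM in Helios null (-0.95, SE 0.24). Mbd2, the methyl-CpG-binding subunit of NuRD, had 2.82 and 3.94 CPM in wild type and 1.88 and 1.92 CPM in Helios null (-0.81, SE 0.33). The groups did not overlap in either gene. The 9 Polycomb and Trithorax peaks had a median of 0.22. Chromatin genes with large exons had 15 peaks (median 0.10). The histone methyltransferase gene Setd1b had a peak in exon 6 of 6 of the annotated transcript. That peak had 17.6 and 8.98 CPM in wild type and 28.8 and 22.1 CPM in Helios null (0.93, SE 0.29). By contrast, exon 14 of Crebbp was at no more than 2.41 CPM in any library.

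Among cytokine signalling genes, 6 had 7 exon peaks, with a median of 0.33 and 6 above 0. The last exon of Socs7, of the suppressor of cytokine signalling family, had 4.98 and 3.49 CPM in wild type and 9.43 and 8.16 CPM in Helios null (1.04, SE 0.28), and Stat4 was under 1 CPM in every library. Collagen genes had 12 exon peaks with a median of -0.59, with 3 above 0. Col4a5, a basement membrane collagen on the X chromosome, had 10.96 and 14.7 CPM in wild type and 5.90 and 6.89 CPM in Helios null (-0.997, SE 0.26). Col28a1 had 1.36 and 2.71 CPM in wild type and 0.63 and 0.92 CPM in Helios null (-1.37, SE 0.46). The giant genes with many exons had 18 peaks with a median of -0.18. The 2 with the lowest p, in Syne1 and Ryr1, were at no more than 1.23 CPM in any library, whereas another Syne1 peak had 34.2 and 46.4 CPM in wild type and 25.4 and 29.2 CPM in Helios null.

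Lists of other cell types were small. No exon peak was assigned to the T and NK cell genes. The B cell genes had 4, all above 0 (median 0.51), and their summed level was 14.1 and 10.7 CPM in wild type and 19.2 and 16.7 CPM in Helios null. These peaks had 28 to 54 genes within 0.5 Mb, and all exon peaks with 26 or more had a median of 0.27. The 3 mast cell and basophil peaks, assigned to Gata2 and Hdc, had a median of 0.42 and sums of 22.2 and 16.7 CPM against 27.6 and 21.4 CPM. The 6 mature myeloid peaks had a median of 0.29 and sums of 36.3 and 38.2 CPM against 44.2 and 39.1 CPM, with 3 of the 6 above 0. Ccr2, a chemokine receptor of monocytes, had the highest value (0.82, SE 0.30), and the pair of peaks in Vcan, the proteoglycan versican, had -0.60 and -0.93. The 9 stroma and endothelium peaks had a median of -0.07, with 5 of the 9 below 0, and sums of 44.9 and 47.2 CPM against 50.96 and 49.96 CPM. Among them Kdr, a receptor of vascular endothelial growth factor, had 1.79 and 2.20 CPM in wild type and 4.22 and 3.53 CPM in Helios null (0.98, SE 0.32) in one peak and 15.4 and 12.9 against 15.5 and 15.8 CPM in another (0.14). The part of such cells in the exon results was not tested.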

How the data were processed

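Sorted bone marrow progenitors of 2 wild-type and 2 Helios null mice were profiled by fast-ATAC, with 1 library from each mouse per the labels. The tools in the submitters' processing notes are HOMER, DESeq, Bowtie2 2.3.4.3 and bcl2fastq 2.17.1.14, without their roles, and the build there is mm10. No source used here states the peak caller or any pooling. Per the file headers, the deposited values are raw counts per peak and library, and the authors also give a mean signal (baseMean), a log2 fold change with its error, and p-values before and after adjustment. No source used here says whether that fold change was shrunk. It was close to the edgeR value at some peaks, as at Gnai1 (-1.30 against -1.42). At others it was far smaller, as at Gm27533 (0.08 against 2.27), so the sizes of these fold changes are not directly comparable.

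Peaks were kept with filterByExpr by group, scaled by TMM and tested with edgeR 4.0.16 (glmQLFit and glmQLFTest, 2-sided, Benjamini-Hochberg over all 130754 tested peaks, threshold 0.05) in R 4.3.3, and exon rows were then read from that fit. A positive log2 fold change means more counts in Helios null. Log2 CPM within a library number used a prior count of 2. Ratios of summed counts were compared by exact permutation over libraries. Exon positions come from the exon number and total in the deposited detailed annotation. Gene density counts protein-coding RefSeq genes whose midpoint lies up to 0.5 Mb from the peak centre. The gene that holds the peak is counted when its midpoint lies in that range. The pipeline was tested on simulated data.

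The peaks named are, among exon peaks with non-overlapping groups, at least median abundance and an unadjusted p under 0.01, the 8 largest fold changes per direction, 1 per gene; the 10 highest wild-type levels per kb; the genes with most exon peaks, where 9 genes tied at 5 and all were kept; 2 per gene list by smallest p, some of which are not reported here; and 5 per direction in the authors' deposited table. The members, the 17 gene lists and the tests were chosen with earlier results of these data known. No genome of the files' build was used here, so sequences come from RefSeq start windows in place of the central bases of peaks, and a GC correction and a check against reference exons were not run. Alternatives were other scalings and filters, limma-voom (limma 3.58.1), DESeq2 1.42.0, a block on library number, each library left out, autosomes only, chromosome 1 left out and narrow exon peaks. Values within each library number were added after seeing the data. Counts limit the precision of low peaks, and the number of mice limits every test.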

Additional observations from a re-analysis of the deposited data

How the results depend on the processing

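Exon peaks called numbered 1701 (669 higher, 1032 lower) with a block on library number, 59 with DESeq2 and 2 to 1512 when 1 library was left out (1512 without wild type 1, 45 without wild type 2, 2 without Helios null 1 and 116 without Helios null 2), against 0 in the reported fit and in the other settings run. Calls over all peaks, 8 as reported, numbered 30595 with the block, 778 with DESeq2, 4 with limma-voom, 0 with chromosome 1 left out (with 10087 higher and 14057 lower peaks under an edgeR p of 0.05 before adjustment) and 39 to 28120 when 1 library was left out (28120 without wild type 1, 1022 without wild type 2, 39 without Helios null 1 and 2066 without Helios null 2). Over exon peaks, libraries that share a number deviated together from their groups (correlation 0.362), but the labels do not pair the mice and there are only 2 pairs, so the block is an alternative. With 1 library left in a genotype, its spread is assumed to be that of the other. The cause of these differences was not tested. The exon median log2 fold change, near 0 as reported, was -0.0634 with promoter density offsets, and its sign differed between settings. The difference in exon share of counts was 0.0106 percentage points for exon peaks narrower than the median peak (exact permutation p = 0.667), the reverse of the reported -0.456. With promoter density offsets the sign was also reversed at Arrdc4 (0.0683), Klf1 (-0.0222) and Epb41 (-0.0413). Over the remaining values of named peaks, 973 kept direction and side of the threshold and 142 crossed it. Of the medians of gene lists and genes, 72 of 414 moved by more than the spread between libraries. The moves were uneven: promoter density offsets moved 16 medians and left 10 the same. A minimum of 50 counts in 2 libraries moved 8, and leaving out 1 library moved 5 to 11. GC offsets and the class of peaks centred in reference exons were not run, since no genome of the files' build was used here. Leaving out a library gives the count ratios a value with no test.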
